A study of Mus musculus with 3 samples.

Results

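A set of nuclei marked by transcripts of Pde1a, Anxa3, Col8a1 and Lrp2 was described in 3 single-nucleus RNA libraries made from differentiated neurosphere cultures of mouse subventricular zone. A nucleus belonged to the set when it held at least 4 unique molecular identifiers (UMIs, each counting 1 captured RNA molecule) of these 4 genes together. It also had to hold fewer than 3 UMIs of the dividing-cell genes Top2a, Mki67, Kif11 and Knl1, fewer than 4 of the myelin genes Mog, Mag, Mobp and Ermn, and fewer than 3 of the microglial genes Inpp5d, Ptprc, Fyb and Adgre1. In all, 1315 of 12549 nuclei met the rule. The control library held 393 of them among 4884 nuclei, the CBP-ablated library 303 among 3017 and the p300-ablated library 619 among 4648. The nuclei were picked on these measured UMIs, so the levels of the 4 genes in them describe the rule and are no finding. They had been labelled radial glia or precursor-like, a name that the markers given further on bear out only in part, and they are called Pde1a-Lrp2 nuclei here.

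The study asked what the acetyltransferases CBP (gene Crebbp) and p300 (gene Ep300), both transcriptional coactivators, do when neural stem cells differentiate. Neural stem cells came from newborn C57BL/6 pups with floxed Crebbp alleles (CBPf/f in the labels) or floxed Ep300 alleles (p300f/f), and the sources used here do not name the line of mice behind the control cultures. According to the methods, the ablated cultures received Cre recombinase fused to mCherry from a lentivirus and the controls a lentivirus with red fluorescent protein, whereas the labels of all 3 samples give tamoxifen as the treatment. Spheres were sorted by red fluorescence, grown again as clonal secondary spheres, and differentiated on Matrigel with serum. About 15 cultures were pooled for each library on day 15, and sorted nuclei (16000 loaded) were captured with a 10x Genomics 3′ kit. Each condition therefore had 1 library and no replicate. No test between conditions was made, and every interval given here is a 95% interval for counting error only.

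Radial glia are the stem cells of the embryonic brain wall. They reach from the ventricular to the outer surface, keep an apical membrane with cadherin junctions and a primary cilium, carry intermediate filaments such as nestin and vimentin, and divide to give neurons and, later, glia. Some persist in the subventricular zone after birth as stem cells with astroglial features. Neurospheres are grown from such cells, and on an adhesive substrate with serum they leave the cycle and form astrocytes, oligodendrocyte-lineage cells and neurons.

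The control library held 16312170 UMIs, the CBP-ablated one 12748336 and the p300-ablated one 18876682. Of these, 1495601, 1366447 and 2767367 UMIs lay in Pde1a-Lrp2 nuclei, in the same order, which is kept for all triplets of values given here. Levels are given in CPM (counts per 1e6), the UMIs of a gene scaled to the UMIs summed over the nuclei concerned. A median Pde1a-Lrp2 nucleus held 3648, 4277 and 4213 UMIs, against 3182, 3965 and 3874 in all other nuclei. The set was thus the deeper one in each library, and a rule on raw UMIs favours deep nuclei. Median genes per nucleus were 1768, 1994 and 1925, against 1511, 1778.5 and 1707. Mitochondrial UMIs made up 0.00622%, 0.00439% and 0.0043% of the total, and 0.0113%, 0.0085% and 0.00734% in the other nuclei. A gene without a UMI in the set has an upper limit of 3 UMIs, or 2.01, 2.20 and 1.08 CPM. The libraries shared few cell barcodes (3 between CBP-ablated and control, 7 between p300-ablated and control, 1 between the ablated libraries) and none among Pde1a-Lrp2 nuclei.

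Most Pde1a-Lrp2 nuclei held several of the 4 defining transcripts. Pde1a (chr2:79834453-80129458 in GRCm38, minus strand), a calmodulin-dependent phosphodiesterase of cyclic nucleotides, had a UMI in 83.0%, 84.5% and 87.6% of them. Lrp2 (chr2:69424340-69586065, minus strand), the endocytic receptor megalin that takes up morphogens in forebrain neuroepithelium, had one in 81.4%, 83.5% and 86.6%. Both were thus in more than 4 of 5 nuclei of every library. Anxa3 (chr5:96793339-96845966, plus strand), a calcium-dependent membrane-binding annexin, was seen in 66.9%, 60.1% and 70.1%. Col8a1 (chr16:57624258-57754737, minus strand), a chain of short-chain collagen VIII, was seen in 45.0%, 53.8% and 46.2%. All 4 genes were detected in 94, 75 and 170 nuclei and 1 gene alone in 44, 24 and 35, so single-gene nuclei were the minority in each library. Across the control nuclei of the set, the correlations among the 4 genes lay between −0.09 and 0.175, a range that the shared threshold itself lowers. They were taken on the log of 1 plus the UMIs of a gene scaled to 10000 UMIs per nucleus.

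The share of nuclei that met the rule was lowest in the control library under each of the settings tried. In control it was 8.05% (7.30 to 8.85), with CBP ablated 10.0% (8.99 to 11.2) and with p300 ablated 13.3% (12.4 to 14.3). CBP-ablated nuclei exceeded control by 2.0 percentage points (0.701 to 3.34) and p300-ablated nuclei by 5.27 points (4.03 to 6.52). Depth and the makeup of each library moved with these shares. After each nucleus was thinned to 1500 UMIs, which left out 248, 95 and 135 shallow nuclei, the shares were 4.42%, 5.07% and 7.29%. The p300 difference was then 2.87 points (1.91 to 3.84), and the CBP difference 0.643 points with an interval from −0.327 to 1.66 that holds 0. Nuclei with at least 6 UMIs of the astrocyte genes Slc7a11, Slc1a2, Apoe and Rorb (here the astrocyte gate) were far more numerous in control. Outside the rule the gate held 1419, 157 and 345 nuclei, so they fill more of the control denominator. Counted outside that gate the shares were 9.70%, 10.0% and 13.0%, with differences of 0.296 points (−1.18 to 1.79) for CBP and 3.31 points (1.88 to 4.72) for p300. Slc7a11 is itself far lower in both ablated libraries, as shown further on, so this gate does not keep like with like. Without replicate libraries, the spread of such shares between cultures is unknown.

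**Figure D1:**
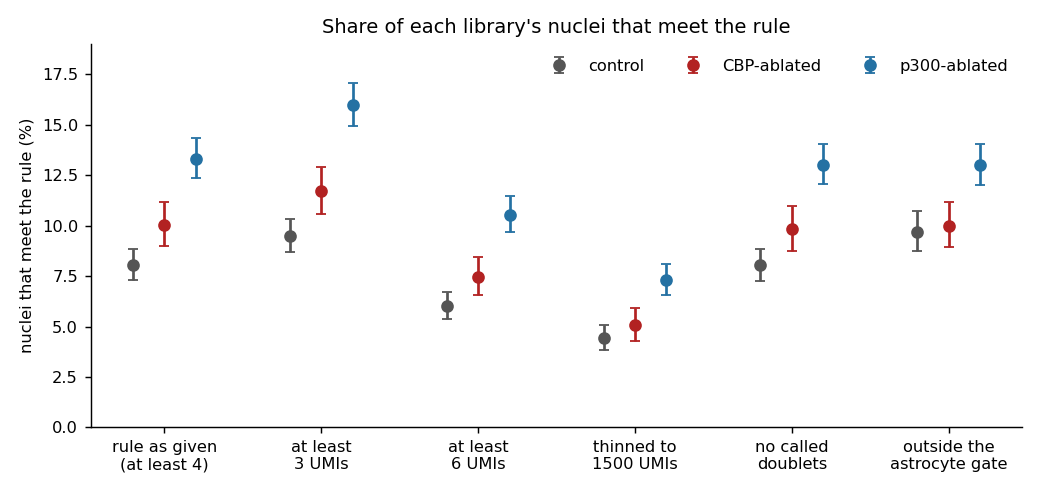
Share of nuclei that met the rule, as a percentage of nuclei (vertical axis), under 6 settings (horizontal axis), with 1 point per library and 95% exact binomial intervals. The p300-ablated point is the highest under every setting, while the CBP-ablated and control points come close together after thinning (5.07% and 4.42%) and outside the astrocyte gate (10.0% and 9.70%).

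Microglia, in which stray RNA from other cells can be gauged, gave the background of the rule. Of them (nuclei with at least 4 UMIs of Inpp5d, Ptprc, Fyb and Adgre1), 0 of 124 in control, 1 of 49 with CBP ablated and 4 of 43 with p300 ablated reached 4 UMIs of the defining genes. Those microglia were shallow, with medians of 1503, 1535 and 2576 UMIs, and carried Anxa3 itself at 203, 208 and 220 CPM. After thinning none reached 4.

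No gap separated the set from its neighbours. The defining sum was exactly 4 in 58, 50 and 72 members, and 70, 50 and 123 nuclei stood just outside with a sum of 3. The median sum among members was 9, 9 and 10, and the highest 45, 53 and 90. Shroom3, which the rule does not use, was higher with each step of this sum in all 3 libraries, with no break at the threshold. In control it stood at 150 CPM in nuclei with none of the 4 transcripts, 1571 at a sum of 3, 1685 at a sum of 4 and 3520 at sums of 12 or more. In the p300-ablated library it was 166, 1485, 2224 and 4385 CPM at the same sums. Nuclei at 3 and 4 thus had like levels in control, and members of high sum had the highest level in both libraries. The astrocyte glypican Gpc5 ran the other way in control, from 2896 CPM at a sum of 0 to 521 at 12 or more. Deep nuclei reach high sums more easily, and the part of depth in these gradients was not tested.

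**Figure D2:**
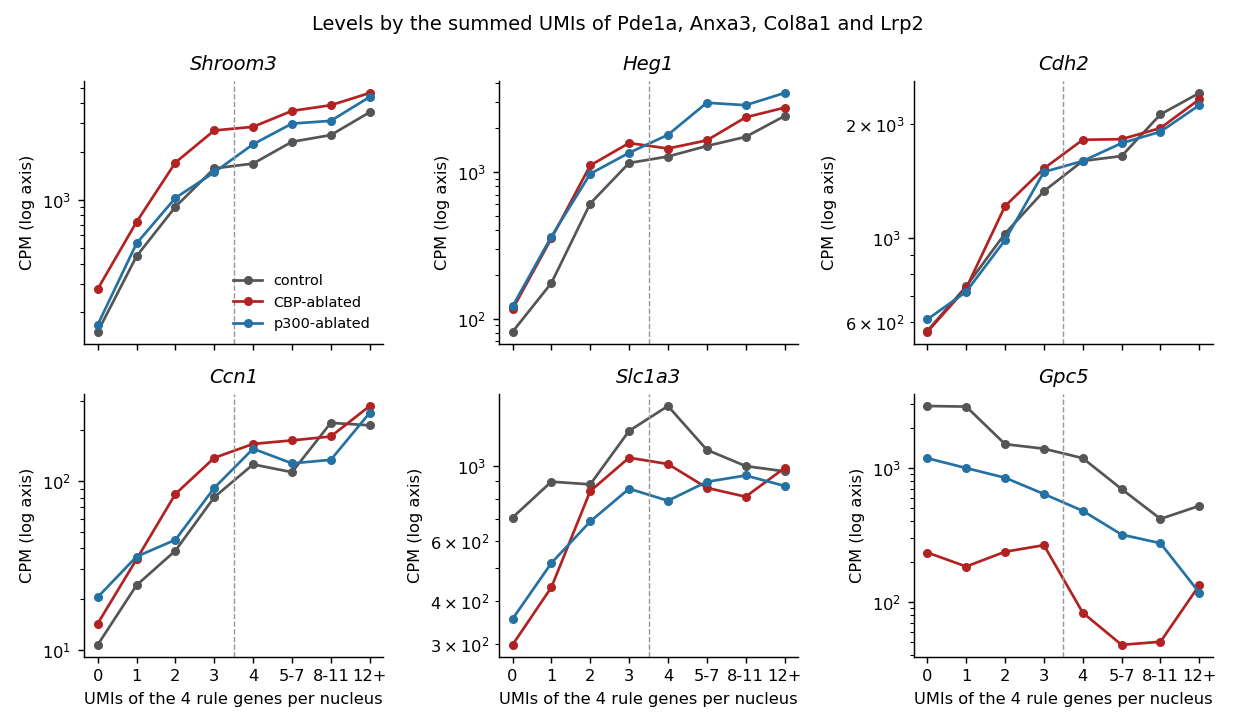
Level of 6 genes (CPM, log axis) in nuclei grouped by the summed UMIs of Pde1a, Anxa3, Col8a1 and Lrp2 (horizontal axis), 1 line per library, with the threshold dashed. Shroom3 is higher with every step in all 3 libraries, without a jump at the threshold, whereas control Gpc5 goes from 2896 to 521 CPM.

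Shroom3 and Cemip are the other markers of the set, and both were high in it in all 3 libraries. Shroom3 (chr5:92683435-92965318, plus strand) encodes an actin-binding protein that drives apical constriction of epithelial cells. Its level was 2806 CPM (2721 to 2892), 3997 (3892 to 4105) and 3587 (3517 to 3658), against 226, 361 and 306 in all other nuclei. After thinning, 89.0%, 94% and 91.7% of the set held a Shroom3 UMI (93.6%, 97.4% and 96.8% without thinning), compared with 15.0%, 20.5% and 19.1% of other nuclei and 6.45%, 12% and 6.45% of microglia. Shroom3 was thus detected in nearly all nuclei of the set. Cemip (chr7:83932857-84086502, minus strand), needed to break down hyaluronan, stood at 215 CPM (192 to 239), 299 (271 to 330) and 422 (398 to 447), against 16.5, 12.1 and 19.7 elsewhere. Its UMIs were found in only 13.1%, 17.7% and 20.7% of thinned nuclei (22.4%, 27.1% and 32.6% unthinned), so Cemip was detected in a minority of the set. Nuclei without a UMI may still express it.

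Genes were then compared between the set and all other nuclei of the same library, as log2 ratios after adding 1 CPM to each side. Since the set was chosen on its transcripts, these ratios describe it and were not tested. Of the 4516 genes that reached 200 UMIs in the set over the 3 libraries, 432 (9.57%) were more than 2-fold above the other nuclei in all 3 libraries and 194 (4.3%) more than 2-fold below. The median log2 ratio was 0.08, 0.10 and 0.13. These shares are the background for each list of genes that follows, and the lists were counted among genes that reached 200 UMIs.

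Of the radial glia and neural stem cell list, 5 of 10 genes were above 2-fold in all 3 libraries and none below, with median log2 ratios of 0.95, 1.58 and 1.17. Nes, the intermediate filament nestin, was at 75.6, 93.7 and 113 CPM in the set and at 11.6, 12.7 and 14.8 in other nuclei. Vim, the filament vimentin, was at 287, 312 and 318 CPM against 57.8, 59 and 74.5. Both filament genes were thus several-fold higher in the set in every library, although Nes had a UMI in only 9.49%, 13.0% and 15.3% of thinned nuclei (21.9%, 30.4% and 31.5% unthinned), against 6.45%, 12% and 6.45% of the few thinned microglia (62, 25 and 31 nuclei). Pax6, the transcription factor of radial glia, was at 36.8, 47.6 and 40.1 CPM against 17.4, 17.2 and 17.4. The Hedgehog effector Gli3 was at 185, 186 and 156 CPM against 77.5, 31.4 and 37.4. Tnc, an extracellular glycoprotein of stem cell niches, was the fifth, and its values are given with the libraries. Hes1, a transcriptional repressor downstream of Notch with too few UMIs to be counted, was at 13.4, 16.8 and 23.1 CPM against 3.11, 1.23 and 2.73. Several other genes of the list lay nearer to or under the other nuclei. Slc1a3, the glutamate transporter GLAST of radial glia and astrocytes, was at 1077, 927 and 884 CPM against 678, 276 and 386. Sox2, a stem cell transcription factor, was at 78.2, 67.3 and 49.5 CPM against 113, 155 and 90.7, lower in the set in each library. Ptprz1, a receptor phosphatase and the most abundant member, was at 1575, 1305 and 1597 CPM against 2898, 1659 and 2998. Hopx, a marker of outer radial glia, reached only 1.34, 5.12 and 1.08 CPM, on 2, 7 and 3 UMIs.

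Pluripotency factors were at or near 0. Pou5f1, Zfp42, Dppa4 and Lin28a had no UMI in any library of the set, and the whole list of 9 genes summed to 5.35, 5.86 and 7.59 CPM. Its most abundant genes were Esrrb (6, 6 and 9 UMIs) and Klf4 (1, 1 and 10 UMIs), both also expressed outside pluripotent cells. Of the cell cycle list 1 of 2 genes with enough UMIs was above 2-fold, Ccnd2 (cyclin D2) at 97.0, 76.1 and 95 CPM against 44.6, 8.96 and 18.4. That list, which the rule limits in part, summed to 191, 176 and 214 CPM against 228, 211 and 290 in other nuclei. No pluripotency signature was thus detectable in the set at this depth.

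Oligodendrocyte precursor and neuronal lists summed lower in the set than in other nuclei, as did the oligodendrocyte and microglial lists that the rule limits in part, while glial progenitor, ependymal, choroid plexus, fibroblast, mural and endothelial lists summed higher in all 3 libraries. Of the astrocyte list 0 of 7 genes were above 2-fold and 1 below, and the list summed to 3627, 2617 and 2729 CPM against 5507, 1076 and 2067, led by the bicarbonate transporter Slc4a4 at 2014, 2016 and 1904. The sum was thus above that of other nuclei in the ablated libraries only. The glial progenitor list had 0 of 4 above and summed to 1426, 1289 and 1358 CPM against 810, 825 and 896, led by the glycosyltransferase gene Mgat5 at 1127, 981 and 1116. Oligodendrocyte precursor genes summed to 1101, 1317 and 2061 CPM against 8872, 8064 and 14130, and 4 of 4 were below 2-fold. Oligodendrocyte genes outside the rule were below in 3 of 3, and the only neuronal gene with enough UMIs, Adarb2, was below at 148, 90.01 and 114 CPM against 645, 622 and 722. With fewer UMIs, the neuronal gene Stmn2 went the other way, at 32.8, 16.8 and 17.7 CPM against 3.31, 7.29 and 3.23. Microglial genes summed to 44.8, 59.3 and 44.5 CPM against 210, 130 and 117 in other nuclei, a sum that the rule limits in part. Ependymal genes were not uniform. Foxj1, the master regulator of motile cilia, stood at 9.36, 7.32 and 9.03 CPM and Tmem212 at 0, whereas the axonemal gene Cfap54 reached 190, 111 and 177 CPM against 28.3, 42.1 and 49.4, and the list summed to 239, 159 and 229 CPM against 49.3, 85.2 and 88.6. Among choroid plexus genes, Ttr (transthyretin) had no UMI and Otx2, a homeobox factor of that epithelium and of the early forebrain, had 62.2, 53.4 and 52.4 CPM against 11.7, 6.59 and 9.75, in a list sum of 68.9, 58.6 and 60.0 against 15.9, 10.4 and 13.5. The fibroblast genes Col1a1, Dcn, Lum, Slc6a13 and Tbx18, the mural genes Kcnj8 and Abcc9 and the endothelial genes Cldn5, Cdh5 and Ly6c1 were at 0 in all 3 libraries. Other genes of those lists were present. The fibroblast list summed to 13.4, 12.4 and 9.03 CPM against 3.31, 2.20 and 2.05 in other nuclei (led by Foxc1), and the endothelial list to 50.8, 79.8 and 40.5 against 44.7, 63.6 and 36.6 (led by Tek). The mural list summed to 120, 174 and 126 CPM against 37.6, 22.8 and 16.0, led by Notch3, its only gene with enough UMIs and above 2-fold, and with Acta2 (smooth muscle actin) at 10.0, 56.4 and 20.6 CPM.

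The genes that stood furthest above the other nuclei in the library where they stood out least were led by Vgll3 (chr16:65815257-65866368, plus strand), a cofactor of the TEAD transcription factors. It was at 94.95 CPM (80.0 to 112), 104 (87.5 to 123) and 129 (116 to 143) in the set and at 1.62, 2.90 and 5.21 elsewhere. The predicted noncoding gene Gm17501 (chr3:145650312-145677580, plus strand) followed with 38.1, 68.1 and 55.3 CPM against 1.82, 1.67 and 1.74. Its 5′ end lies 331 bases from that of the divergent gene Ccn1, and the genes do not overlap. Tagln, the actin-binding transgelin, had 44.8, 61.5 and 47.7 CPM against 1.76, 3.60 and 1.92, and the matricellular gene Ccn5 had 47.5, 85.6 and 59.3 against 1.35, 4.48 and 3.91. Low levels elsewhere make the size of these ratios depend on the added CPM, and with 10 CPM added the smallest log2 ratio of Vgll3 was 3.14 rather than 4.39.

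Of the more abundant leading genes, Heg1, a transmembrane receptor of cell junctions, was at 1912, 2229 and 3043 CPM against 140, 233 and 263, and 76.4%, 77.7% and 86.3% of thinned nuclei (88.3%, 90.8% and 93.9% unthinned) held a UMI of it compared with 13.1%, 18.3% and 18.6% of others. Cp, the copper-binding ferroxidase ceruloplasmin, was at 864, 613 and 1061 CPM against 62.5, 40.9 and 89.4. Heg1 was thus highest in the p300-ablated library and Cp lowest in the CBP-ablated one. Akap12, a scaffold for protein kinase A, was at 612, 582 and 676 CPM against 44.3, 37.3 and 68.4. The organic anion transporter Slco1a4 was at 453, 359 and 563 CPM against 25.3, 29.4 and 58.7. Galnt17, a Golgi glycosyltransferase, was at 1452, 1620 and 1646 CPM against 108, 172 and 172, and the glypican Gpc4 at 808, 1164 and 975 against 87.1, 101 and 105. Every one of these genes was several-fold higher in the set than in other nuclei of each library. A few leading genes are microglial as well: Lrrk1 was at 211, 295 and 271 CPM in the set and 259, 219 and 191 in microglia, and the noncoding gene Morrbid at 150, 92.9 and 128 against 238, 354 and 272 in microglia. Among the genes furthest below other nuclei were Mbp, a myelin protein gene, at 19.4, 93.7 and 23.1 CPM against 380, 1838 and 477, and Pdgfra, the growth factor receptor of oligodendrocyte precursors, at 22.1, 24.2 and 62.5 against 257, 220 and 515.

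Most genes of the Hippo pathway list were higher in the set than in other nuclei. The pathway restrains the coactivators YAP (Yap1) and TAZ (Wwtr1), which bind DNA through TEAD factors and raise targets such as Ccn1, Ccn2 and Amotl2. Of 13 genes with enough UMIs, 10 were above 2-fold in all 3 libraries and none below, and the median log2 ratio was 1.78, 1.93 and 1.95. The coactivator genes were Yap1 at 76.2, 66.6 and 85.3 CPM against 37.6, 22.5 and 21.4, and Wwtr1 at 332, 295 and 301 against 88, 49 and 58.2. The factor gene Tead1 was at 790, 870 and 875 CPM against 261, 184 and 263. Both partners of the YAP-TEAD complex were thus higher in the set. Of the targets, Ccn1 was at 179, 220 and 190 CPM against 14.3, 19.1 and 25.4, and held by 20.8%, 26.0% and 21.3% of thinned nuclei (41.0%, 50.2% and 44.6% unthinned) compared with 2.05%, 2.40% and 3.41% of others. Ccn2 was at 76.2, 124 and 55.3 CPM against 6.88, 17.7 and 9.75. Amotl2 was at 143, 184 and 169 CPM against 33.5, 47.6 and 38.3. All 3 targets were several-fold higher in each library, whereas Ankrd1, another target, had no UMI. Nuak2, a kinase linked to YAP, was at 171, 274 and 264 CPM against 10.4, 23.3 and 23.0. Wwc1 (Kibra), an upstream activator of the restraining kinases, was at 1893, 2284 and 2384 CPM against 313, 340 and 416.

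The regions upstream of 4 of these genes are shown because TEAD factors bind the letters GGAATG, or CATTCC on the other strand, which are in capitals. Each is the 250 bases before the gene's start in RefSeq on GRCm38.p6, 5′ to 3′ along the gene. They lie at chr3:145649986-145650235 (Ccn1, minus strand), chr16:65814939-65815188 (Vgll3, plus strand), chr9:102717554-102717803 (Amotl2, plus strand) and chr14:54577662-54577911 (Ajuba, minus strand).
Ccn1: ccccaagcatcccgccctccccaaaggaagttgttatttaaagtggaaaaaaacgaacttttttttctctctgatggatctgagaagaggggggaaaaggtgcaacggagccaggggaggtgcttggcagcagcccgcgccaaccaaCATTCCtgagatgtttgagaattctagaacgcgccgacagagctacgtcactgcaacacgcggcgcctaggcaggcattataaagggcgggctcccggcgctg
Vgll3: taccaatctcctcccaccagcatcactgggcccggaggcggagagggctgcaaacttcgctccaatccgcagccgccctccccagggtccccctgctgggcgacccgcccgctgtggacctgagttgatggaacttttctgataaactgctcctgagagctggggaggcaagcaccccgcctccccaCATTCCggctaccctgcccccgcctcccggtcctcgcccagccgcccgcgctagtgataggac
Amotl2: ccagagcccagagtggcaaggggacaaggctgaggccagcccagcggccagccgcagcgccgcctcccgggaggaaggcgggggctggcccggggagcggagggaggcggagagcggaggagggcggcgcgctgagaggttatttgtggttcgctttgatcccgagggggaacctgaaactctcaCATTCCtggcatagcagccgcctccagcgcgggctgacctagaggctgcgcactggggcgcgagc
Ajuba: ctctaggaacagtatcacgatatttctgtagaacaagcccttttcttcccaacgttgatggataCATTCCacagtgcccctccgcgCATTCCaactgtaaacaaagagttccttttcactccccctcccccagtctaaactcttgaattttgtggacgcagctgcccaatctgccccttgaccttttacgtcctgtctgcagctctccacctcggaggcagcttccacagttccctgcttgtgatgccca
The capitals begin 103 bases before the start in Ccn1, 63 in Vgll3, 65 in Amotl2, and 186 and 164 in Ajuba, a LIM protein that restrains the pathway's kinases (18.7, 25.6 and 21.0 CPM against 1.76, 2.81 and 2.42). In RefSeq windows of 250 bases before to 50 after a start, the letters stood in 4817 of 32851 windows (14.7%) and in at least 1 window of 4481 of 27025 genes (16.6%). They stood in those of 10 of the 15 Hippo list genes that have one, including Yap1, Wwtr1 and Axl, in 7 of 15 actin list genes and in 6 of 14 leading genes. Neither window of Shroom3 nor that of Heg1 held them. A second motif, the CArG box of serum response factor, stood in a window of 1.81% of all genes, of 0 of 14 leading, 0 of 15 Hippo and 1 of 15 actin list genes (Vcl). Both motifs and the genes shown were chosen after the values were seen, and a match of 6 letters describes the sequence and not binding.

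Genes of the actin cytoskeleton and focal adhesions were higher as well. Of 19 genes 12 were above 2-fold and 1 (Svil) below, with medians of 1.59, 1.70 and 1.63. Palld, the actin bundler palladin and most abundant of the list, was at 983, 1457 and 1357 CPM against 181, 150 and 176. Cald1, the actin-binding caldesmon, was at 720, 868 and 805 CPM against 130, 154 and 140, with a UMI in 49.2%, 49.0% and 47.0% of thinned nuclei (63.6%, 69.0% and 70.4% unthinned) compared with 15.1%, 17.7% and 17.4% of others. Tpm1, a tropomyosin, was at 441, 618 and 610 CPM against 103, 111 and 146. All 3 were lowest in the control library. Vcl (vinculin), which ties integrins to actin, was at 521, 643 and 600 CPM against 115, 104 and 108. The cross-linker Actn1 was at 263, 340 and 357 CPM against 24.5, 33.7 and 38.3, though microglia also carried it at 138, 156 and 176.

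The extracellular matrix list had 9 of 11 genes above 2-fold, with medians of 2.33, 2.70 and 2.11. Basement membrane chains led it, with Col4a5 at 439, 556 and 561 CPM against 84.7, 78 and 102 and Col4a6 at 249, 268 and 240 against 27.7, 26.8 and 54.7. The fibrillar chain Col5a2 was at 315, 303 and 343 CPM against 20, 23.6 and 34. Only Vcan, a proteoglycan abundant in oligodendrocyte precursors, was below, at 72.9, 98.8 and 144 CPM against 520, 375 and 814.

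Apical polarity and junction genes were above 2-fold in 5 of 12 (Shroom3, Pard3b, Crb2, Cdh2 and Plekha7), with medians of 0.91, 0.89 and 0.95. Cdh2, the N-cadherin of radial glial junctions, was at 2071, 2068 and 2007 CPM against 602, 548 and 659. Pard3b, a relative of the polarity protein Par3, was at 1532, 1625 and 1540 CPM against 380, 338 and 374. Crb2, an apical membrane determinant, was at 63.5, 71.7 and 64.7 CPM against 6.48, 11.4 and 13.3. These levels lay close together across the 3 libraries, while the epithelial cadherin Cdh1 had no UMI.

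Among receptors and signalling genes, the growth factor and insulin-like growth factor list had 7 of 10 genes above 2-fold and none below (medians 1.89, 2.59 and 2.31). Ghr, the growth hormone receptor, was at 1078, 1175 and 1129 CPM against 215, 115 and 159. The carriers of insulin-like growth factors were higher too, with Igfbp2 at 322, 364 and 379 CPM against 69.6, 22.7 and 31.3 and Igfbp5 at 245, 247 and 318 against 23.8, 23.1 and 46.8. Of the BMP and TGF-beta list 5 of 14 were above. They included the ligand Bmp6 at 405, 671 and 545 CPM against 29.3, 62.8 and 63.6 and the inhibitory Smad6 at 88.3, 94.4 and 103 against 11.6, 16.2 and 17.1. A ligand and an inhibitor of the same pathway were thus both high. Of the Wnt and planar polarity list 2 of 8 were above, chiefly the Wnt5a receptor Ror1 at 871, 753 and 919 CPM against 138, 84.5 and 133, and Prickle1 was below at 68.2, 51.2 and 52.4 against 183, 471 and 144. The Notch list had 2 of 5 above, the receptors Notch2 (189, 237 and 214 CPM against 53.3, 50.2 and 45.4) and Notch3 (89.6, 98.8 and 85.6 against 31.9, 15.1 and 10.3), and the Hedgehog list 2 of 8 (Gli3 and the coreceptor Boc). Of the retinoid list 1 of 2 was above, the retinaldehyde dehydrogenase Aldh1a1 at 684, 335 and 626 CPM against 152, 91.5 and 191. Of the p53 targets 0 of 4 and of the immediate early and stress genes 0 of 1 were above.

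**Figure D3:**
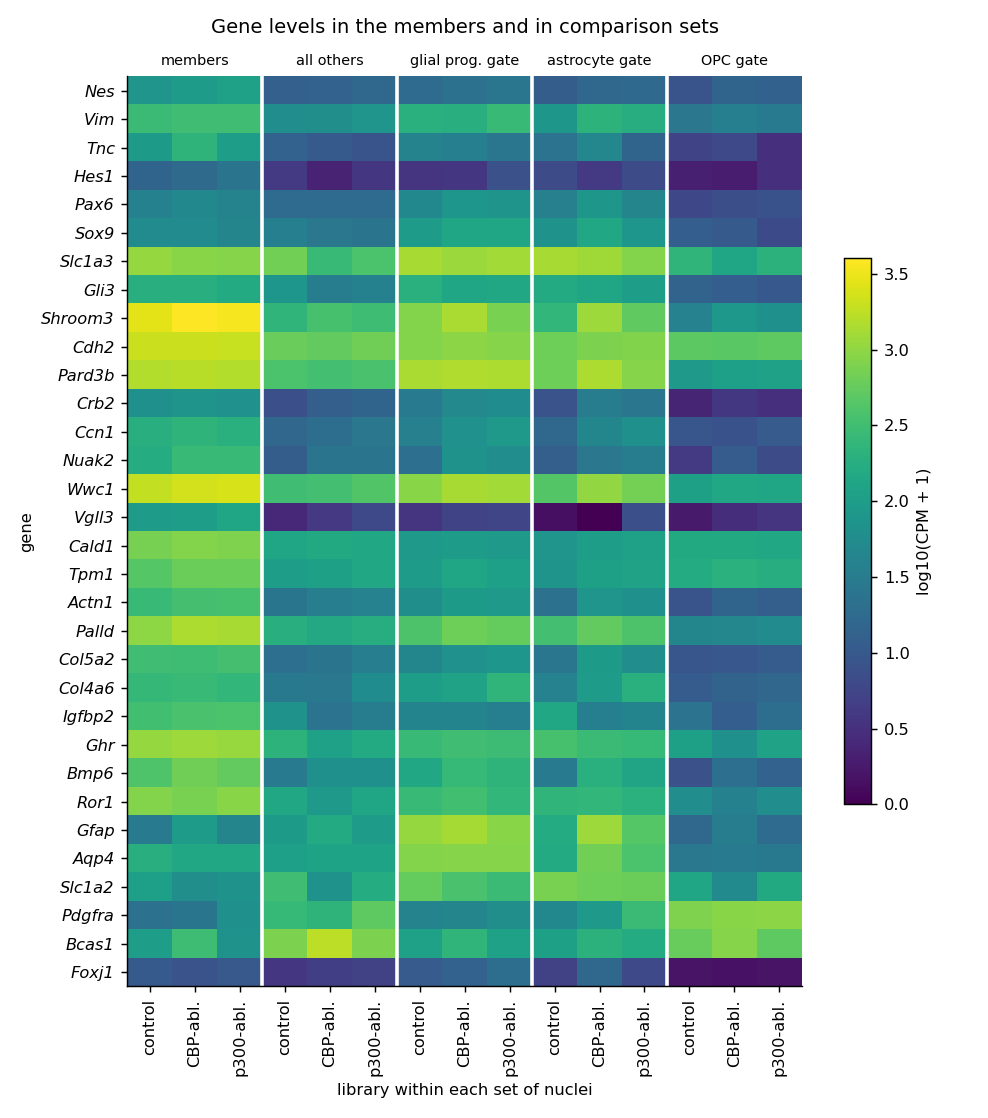
Heat map of 32 genes (log10 of CPM + 1) in Pde1a-Lrp2 nuclei, all other nuclei and nuclei of the glial progenitor, astrocyte and oligodendrocyte precursor gates, each in the 3 libraries. Hippo, actin, matrix and growth factor genes are bright in the Pde1a-Lrp2 columns of all 3 libraries, whereas Gfap is brightest in the glial progenitor gate (1086, 1316 and 920 CPM) and in the CBP-ablated astrocyte gate, and Pdgfra in the oligodendrocyte precursor gate.

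The set was also compared with the glial progenitor gate (at least 4 UMIs of Aqp4 and Gfap), the astrocyte gate and the oligodendrocyte precursor gate (at least 4 UMIs of Pdgfra, Cspg4 and Megf11). Each gate was taken outside the rule and with the same exclusions, and profiles of further groups were not compared. Over the 4516 genes, the correlation of the set's profile with the glial progenitor gate was 0.867, 0.879 and 0.868. It was 0.811, 0.860 and 0.852 with the astrocyte gate and 0.629, 0.633 and 0.651 with the oligodendrocyte precursor gate. Of these gates the glial progenitor gate was the most alike in each library, and these values are across genes, which are not independent. Against it, 183 of the 4516 genes were above 2-fold in all 3 libraries and 80 below, which is the background for the list counts against this gate. Only 2 of the 10 radial glia genes, Nes and Tnc, were above it and Id4 was below, so most of that list did not set the nuclei apart from glial progenitors. Of the actin list 10 of 19 genes were above, of the matrix list 6 of 11 and of the growth factor list 5 of 10. Of the Hippo list 3 of 13 were above (Ccn1, Amotl2 and Nuak2). Akap12 was at 15.9, 26.0 and 21.5 CPM in that gate, Cald1 at 86.6, 94.9 and 88.3 and Igfbp2 at 41.5, 41.2 and 34.6, all far under the set. Shroom3 differed less from it than from all other nuclei, with a smallest log2 ratio of 1.52 rather than 3.47. In the other direction Aqp4, the astroglial water channel, was at 183, 139 and 139 CPM in the set and at 853, 878 and 895 in the gate, which selects on it. Gfap, the astroglial intermediate filament that the gate also uses, was at 29.4, 95.1 and 41.9 CPM against 1086, 1316 and 920.

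The set shared some nuclei with these gates. In the set, 17, 28 and 29 nuclei also met the glial progenitor gate, 63, 19 and 68 the astrocyte gate and 8, 8 and 40 the oligodendrocyte precursor gate. Within the astrocyte gate, the share with 4 or more defining UMIs was 4.25% for control (63 of 1482), 10.8% with CBP ablated (19 of 176) and 16.5% with p300 ablated (68 of 413). The median depth of these gate nuclei differed, at 3143, 4111 and 4429 UMIs. After thinning the shares were 1.35%, 3.41% and 4.84%. Because the gate is drawn partly on Slc7a11, it does not hold like nuclei in the 3 libraries. Called doublets made up 4.07%, 4.62% and 5.82% of the set and 3.90%, 2.17% and 3.40% of other nuclei.

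Cemip was spread unevenly within the set. Nuclei with at least 3 Cemip UMIs numbered 33, 33 and 104, or 8.40%, 10.9% and 16.8%, and held 81.0%, 84.8% and 89.1% of all its UMIs. Their median depth was 3927, 4935 and 4420.5 UMIs, against 3575, 4199 and 3949 in nuclei without Cemip, and 1, 2 and 11 of them were called doublets. In these nuclei, chosen after the values were seen, Cald1 was at 1610, 1705 and 1625 CPM and in nuclei without Cemip at 619, 665 and 564. The small GTPase gene Rhoj was at 337, 512 and 512 CPM against 138, 131 and 151, and Tpm1 at 710, 1060 and 870 against 419, 556 and 529. These 3 genes, among those of largest ratio, were thus higher in the Cemip nuclei in all 3 libraries. The astroglial potassium channel gene Kcnj10 was lower there, at 36.6, 24.4 and 51.4 CPM against 100, 109 and 118. Its levels in the Cemip nuclei rest on only 5, 4 and 27 UMIs.

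The floxed genes were read in the set first. Crebbp (chr16:4081328-4213997, minus strand) had 392 CPM (361 to 425), 407 (374 to 442) and 402 (379 to 427). Ep300 (chr15:81585351-81652077, plus strand) was at 112 (96.0 to 131), 132 (114 to 153) and 106 (94.1 to 119). The log2 ratio of Crebbp with CBP ablated over control was 0.05 (−0.12 to 0.22), and that of Ep300 with p300 ablated over control −0.085 (−0.364 to 0.197). Between the ablated libraries Ep300 was lower with p300 ablated, with a log2 ratio of CBP over p300 of 0.323 (0.048 to 0.595) in the set and 0.222 in other nuclei. The counts include introns and do not say where in a gene its reads lie, and reads outside a deleted exon check nothing. The paper states, citing earlier work, that recombined Ep300 leaves no mature mRNA, but these counts do not separate mature from precursor RNA. These levels thus check neither the ablation nor the labels. Xist, the noncoding RNA of the inactive X chromosome, was at 714, 1302 and 703 CPM, and at 1115, 1741 and 1065 in other nuclei, so the pooled cultures differed in Xist level. Genotype, pool and capture cannot be told apart in any comparison between libraries.

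Profiles of the set were alike between libraries, with a correlation across genes of 0.959 between the CBP-ablated and control libraries, 0.976 between the p300-ablated and control libraries and 0.968 between the ablated libraries. Of 4629 genes with at least 100 UMIs in the CBP-ablated and control nuclei together, 25 (0.54%) were more than 2-fold higher with CBP ablated and 48 (1.04%) more than 2-fold lower. Of 5777 genes compared for p300, 21 (0.364%) were higher and 14 (0.242%) lower, or 33 and 14 when each nucleus had the same weight. With at least 20 UMIs in each library the balance turned, to 20 higher and 62 lower of 7657. Such a minimum stands for a lower CPM in the deeper p300-ablated set. In 87.0% and 91.8% of genes the log2 ratio lay within 0.5 of 0. The 2 comparisons share the control library. With so few genes past 2-fold, a short list is likely to hold none. Of the 7 astrocyte genes compared 2 (Slc7a11 and Gpc5) were past 2-fold lower for CBP and 3 (these and Apoe) for p300, with list medians of −0.86 and −0.62. None of the 19 actin genes, of the 12 apical polarity genes or of the 10 growth factor genes was past 2-fold in either comparison, and the medians of the actin list were 0.22 for CBP and 0.21 for p300. None of the Hippo genes compared (12 and 14) was past 2-fold either, and of the 11 matrix genes 1 (Tnc) was for CBP and 0 for p300. Shroom3 had a log2 ratio of 0.51 for CBP and 0.35 for p300, Cemip 0.48 and 0.97.

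**Figure D4:**
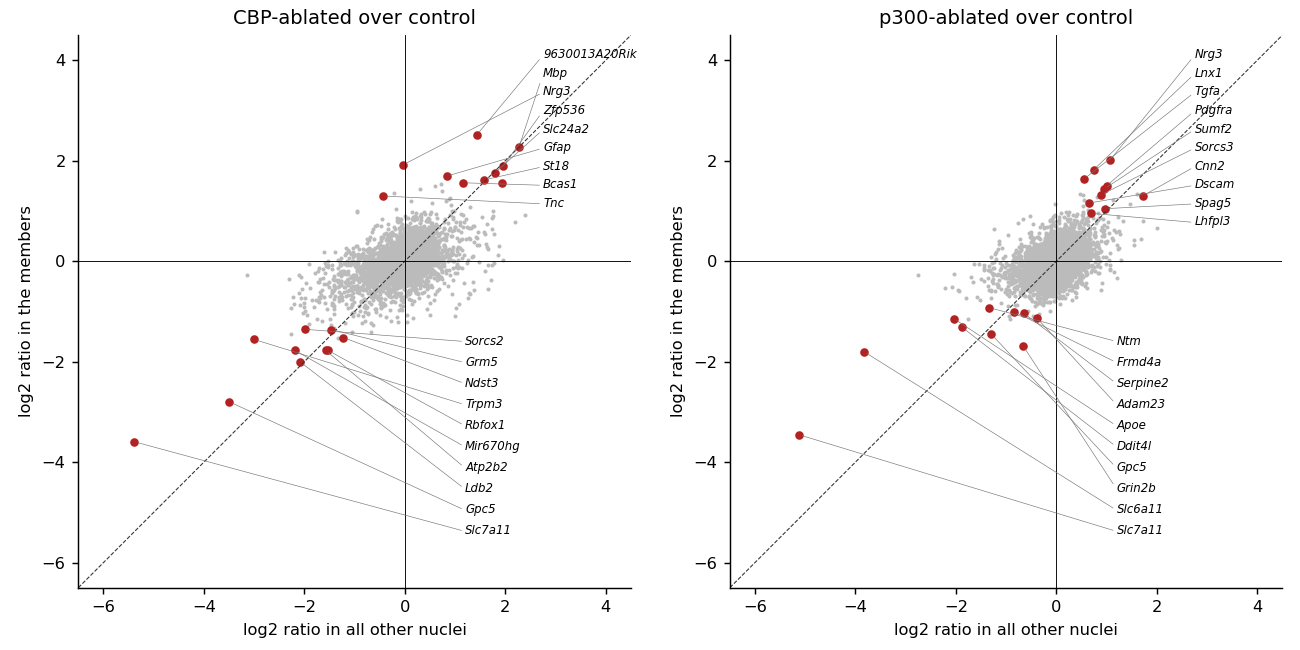
Log2 ratio to control of each gene compared, in Pde1a-Lrp2 nuclei (vertical axis) against all other nuclei (horizontal axis), for the CBP-ablated library (left) and the p300-ablated library (right), with equality dashed and the 10 genes furthest from control in each direction in red. Slc7a11 and Gpc5 lie at the lower left of both panels, and Tnc lies above the line on the left, at 1.30 against −0.43.

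The gene furthest under control in both ablated libraries was Slc7a11, which encodes the cystine-glutamate exchanger. It had 225, 17 and 38 UMIs, or 150 CPM (131 to 171), 12.4 (7.25 to 19.9) and 13.7 (9.72 to 18.9). The log2 ratio was −3.60 (−4.40 to −2.89) for CBP and −3.45 for p300, and in other nuclei −5.38 and −5.13. Without nuclei that also met another gate it was −2.70 and −2.34, and the astrocyte gate among these is drawn partly on Slc7a11 itself. Gpc5, a glypican of astrocytes, was at 633 CPM (593 to 674), 90.8 (75.5 to 108) and 231 (214 to 250), with log2 ratios of −2.80 (−3.08 to −2.53) and −1.45 in the set and −3.49 and −1.30 in other nuclei. For both genes the intervals of control and ablated nuclei did not overlap. Both mark the astrocyte gate, which is larger in the control library, and the part of astrocyte RNA in these values was not tested.

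Among the other genes furthest under control with CBP ablated, the splicing factor gene Rbfox1 was at 375, 110 and 463 CPM, a log2 ratio of −1.77, and was not lower with p300 ablated. Ldb2, a cofactor of LIM-homeodomain factors, was at 73.6, 18.3 and 37.2 CPM (−2.01). Trpm3, a cation channel gene, was at 201, 68.1 and 138 CPM (−1.56), and Grm5, a metabotropic glutamate receptor gene, at 278, 108 and 242 (−1.36). All 4 had their lowest level in the CBP-ablated library. Of the listed genes, Aldh1a1 was at 684, 335 and 626 CPM, a log2 ratio of −1.03 (−1.19 to −0.87), and the Hedgehog coreceptor Cdon at 50.8, 22.0 and 40.8 (−1.21). Of the 48 lower genes, 43 were on the same side of 0 in other nuclei and 27 past 2-fold there. For the 25 higher genes these counts were 21 and 9. The share on the same side among all genes compared was not counted.

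The gene furthest above control with CBP ablated was 9630013A20Rik, with a log2 ratio of 2.51 (1.86 to 3.23) in the set and 1.43 in other nuclei. Oligodendrocyte genes, which are scarce in the set, were also among those furthest above. Of the 4 oligodendrocyte list genes outside the rule, 3 had enough UMIs in both libraries together to be compared, and all 3 were past 2-fold. A minimum on the sum favours genes that are high in either library. St18, for example, had 40 UMIs in the control set and 112 with CBP ablated. The count therefore describes the genes compared and not the whole list. Bcas1, a gene of newly formed oligodendrocytes, was at 103, 304 and 66.9 CPM, a log2 ratio of 1.56 (1.29 to 1.84) in the set and 1.17 in other nuclei. It was 0.95 when the threshold was 3 UMIs. Mbp had a ratio of 2.27 (1.68 to 2.91), and 2.27 in other nuclei. The zinc finger gene Zfp536 was at 15.4, 57.1 and 9.76 CPM (1.89), and the lineage factor gene Sox10 at 20.1, 52.7 and 26.0 (1.39). The same genes were thus higher in the surrounding nuclei of that library. When 10% of each nucleus was taken as stray RNA of its library and subtracted, at most the floor of 3 UMIs of Mbp, Zfp536 and St18 was left in either library and no ratio could be had, whereas that of Bcas1 became 2.18.

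Tnc was the matrix and stem cell gene that stood apart. Tnc (chr4:63959785-64047015, minus strand) was at 90.3 CPM (75.7 to 107) in the control set, 222 (198 to 248) with CBP ablated and 103 (91.7 to 116) with p300 ablated. The CBP-ablated interval lay above both others. The log2 ratio to control was 1.30 (1.00 to 1.60), against −0.43 in all other nuclei. Nrg3 (chr14:38368952-39473088, minus strand), a neuregulin ligand of ErbB4, was at 20.7, 78.3 and 83.1 CPM in the set, with log2 ratios of 1.92 (1.33 to 2.54) for CBP and 2.0 for p300. In other nuclei its ratios were −0.04 and 1.06, and without called doublets the ratios in the set were 1.19 and 1.26. Gfap was at 29.4, 95.1 and 41.9 CPM, a ratio of 1.69 (1.19 to 2.22) for CBP, against 0.83 in other nuclei and 0.77 once nuclei of another gate were left out, a gate that is itself drawn on Gfap.

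With p300 ablated, the genes furthest above control included Pdgfra, the only 1 of 7 oligodendrocyte precursor list genes compared that was past 2-fold. Pdgfra was at 22.1, 24.2 and 62.5 CPM (log2 ratio 1.5), and the adhesion gene Dscam at 240, 269 and 536 (1.16). The precursor gene Lhfpl3, just short of that fold, was at 772, 942 and 1493 CPM (0.95). These transcripts were concentrated in few nuclei. The 40 p300-ablated nuclei of the set that also met the oligodendrocyte precursor gate (6.46%) held 66.1% of its Dscam UMIs and 58.7% of Lhfpl3. Such nuclei were also rich in them in the other libraries. In control 8 nuclei (2.04%) held 35.7% of Dscam and 33.2% of Lhfpl3, and with CBP ablated 8 (2.64%) held 26.4% and 21.5%. Without nuclei of another gate the ratios were 0.13 for Dscam and 0.16 for Lhfpl3. That of Pdgfra was 0.15, but the gate is drawn on Pdgfra itself, so its loss there follows from the gate. Without that gate's nuclei and called doublets, Lhfpl3 was at 428, 487 and 521 CPM. The same held for the growth factor gene Tgfa, at 10.0, 17.6 and 31.1 CPM, whose ratio of 1.63 was 0.28 without nuclei of another gate.

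Of the other genes higher with p300 ablated, Sumf2, a sulfatase-modifying factor gene, was at 147, 321 and 398 CPM (log2 ratio 1.44, and 0.95 in other nuclei). Spag5, a spindle protein gene, was at 131, 277 and 270 CPM (1.04), and the calponin gene Cnn2 at 26.1, 41.7 and 64.3 (1.30). Each was higher than control in both ablated libraries, and without nuclei of another gate the ratios for p300 were 1.41, 1.07 and 1.34. Among the lower genes, Grin2b, an NMDA receptor subunit gene, was at 122, 115 and 37.9 CPM, a ratio of −1.69 against −0.66 in other nuclei, and thus low with p300 ablated alone. Apoe, the astroglial apolipoprotein, was at 214, 108 and 96.8 CPM (−1.14, and −0.98 without nuclei of another gate, which is drawn partly on Apoe). The GABA transporter gene Slc6a11 was at 52.8, 9.51 and 15.2 CPM (−1.80, and −0.89 without such nuclei). Serpine2, a secreted protease inhibitor gene, was at 140, 105 and 68.3 CPM (−1.03, but short of 2-fold at thresholds of 6 and 3 UMIs with −0.90 and −0.82, without nuclei of another gate with −0.945 and with equal weight per nucleus with −0.90). The immediate early gene Egr1 was higher, at 21.4, 24.2 and 47.3 CPM (1.15). Of the 21 higher genes 20, and of the 14 lower genes 14, were on the same side in other nuclei, a share not counted among all genes compared.

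**Figure D5:**
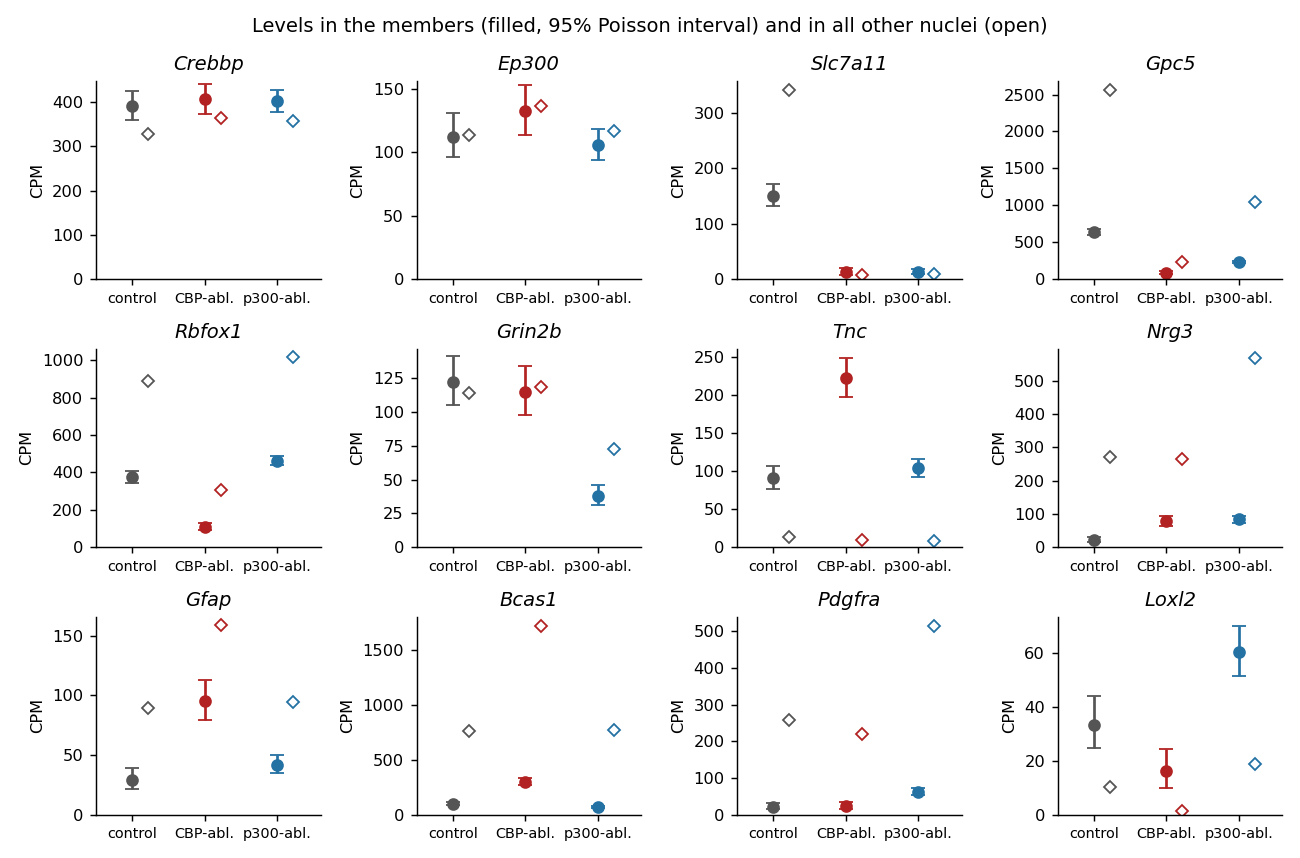
Level of 12 genes (CPM, linear axis) in the control, CBP-ablated and p300-ablated libraries, with filled points for Pde1a-Lrp2 nuclei and their 95% Poisson intervals and open points for all other nuclei. Slc7a11 and Gpc5 are lower than control in both ablated libraries, Grin2b is low in the p300-ablated set (37.9 CPM), Tnc is high in the CBP-ablated set (222 CPM), and Crebbp is at 392, 407 and 402 CPM and Ep300 at 112, 132 and 106.

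The direct comparison of the ablated libraries does not use the control. Of 5714 genes, 27 (0.473%) were more than 2-fold higher with CBP ablated than with p300 ablated and 51 (0.893%) lower. With at least 20 UMIs in each library the balance turned here too, to 112 higher and 43 lower of 7494. The noncoding gene 9630013A20Rik led the higher ones, at 15.4, 87.8 and 4.34 CPM, a log2 ratio of 4.34, and 9530059O14Rik followed at 45.5, 68.1 and 10.5 CPM, with 2.70 (1.72 without called doublets). Of the 4 oligodendrocyte list genes outside the rule, 3 had enough UMIs to be compared. All 3 were past 2-fold, among them Bcas1 with 2.18, and Zfp536, outside the list, had 2.55. Subtracting 10% stray RNA left at most 3 UMIs of 9530059O14Rik, Zfp536, Mbp and St18 in either library, so these calls were lost. With p300 ablated it left no more than that floor of Bcas1 either, so the ratio of Bcas1 after subtraction is not a measured one. Lix1 was at 43.5, 81.2 and 24.6 CPM, a ratio of 1.73 against 0.42 in other nuclei. Grin2b (1.60), Ccn2 (1.17), Tnc (1.10) and the smooth muscle actin gene Acta2 (1.45) were higher as well. Acta2 was low throughout, at 10.0, 56.4 and 20.6 CPM. Lower with CBP ablated were Rbfox1 (−2.08), the AMPA receptor regulator Cacng4 at 60.2, 25.6 and 103 CPM (−2.01, or −1.28 without called doublets and −1.43 without nuclei of another gate), and Loxl2, a collagen cross-linking oxidase, at 33.4, 16.1 and 60.4 (−1.91). The noncoding gene Gm16867, 105706 bases from Loxl2 on chromosome 14, had 62 UMIs in the control set, 1 with CBP ablated and 127 with p300 ablated. It had 21.1, 0.351 and 33.3 CPM in other nuclei, so it was nearly absent from the whole CBP-ablated library. Of the 27 higher genes 26, and of the 51 lower genes 45, were on the same side of 0 in other nuclei. Here too the share among all genes compared was not counted.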

How the data were processed

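Single-nucleus RNA was sequenced in 3 libraries, and the authors deposited counts of UMIs per gene and nucleus without normalization. Per the labels and methods, reads were checked with FastQC 0.11.9, aligned to GRCm38 and counted in exons and introns by Cell Ranger 3.1, and Seurat 2.3.4 served for the study's own clustering. Its Wilcoxon test over nuclei was not used, because nuclei are not replicates.

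The deposited matrices held 30559 genes, of which 30487 identifiers were found in GENCODE, and 87 symbols on 2 or more rows were left out of comparisons. All nuclei in the files were kept. The members and the 29 gene lists were chosen with earlier results of these data known. UMIs were summed over the nuclei of each library and given as CPM with exact Poisson intervals, shares with Clopper-Pearson intervals, differences of shares with Newcombe intervals and ratios of 2 libraries with conditional binomial intervals, all at 95%. Ratios to other nuclei had 1 CPM added, and a gene counted as past the fold at a log2 ratio above 1 in size. Doublets were the nuclei of highest Scrublet score (scanpy 1.11.5) at 0.8% for each 1000 nuclei, and they were kept. Thinning drew 1500 UMIs per nucleus with seed 1.

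Genes were named when they belong to the rule, its markers, the floxed genes, Xist or a list. They were also named when they were among the 10 largest or 10 smallest log2 ratios of a comparison between libraries (at least 100 UMIs together, ranked by the interval bound nearest 0), or among the 20 genes furthest above the other nuclei (at least 200 UMIs). Some genes that this covers are not reported here. Gm16867's neighbour, the Cemip-rich nuclei and the sequence motifs were looked at after the values were seen. Alternatives were thresholds of 3 and 6 UMIs, no exclusions, thinning, leaving out doublets or nuclei of another gate, other denominators, equal weight per nucleus, centring, subtraction of 10% stray RNA, and other minimum counts. The script was tested on simulated counts. Python 3.11.15, numpy 2.4.6, scipy 1.17.1, pandas 2.3.3 and matplotlib 3.10.9 were used.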

Additional observations from a re-analysis of the deposited data

Results flagged for a closer look

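In 5 genes past 2-fold between the CBP-ablated and control libraries, the difference within the Pde1a-Lrp2 nuclei ran against that in all other nuclei, with both intervals clear of 0. The difference between these ratios was not tested, since each library is 1 sample. Tnc, the extracellular glycoprotein, had a log2 ratio of 1.30 (1.00 to 1.60) in the set and −0.43 in other nuclei. Sh3rf3, a scaffold with SH3 domains, was at 22.7 CPM in the control set, 58.6 with CBP ablated and 29.3 with p300 ablated, with a ratio of 1.37 (0.77 to 1.99) against −0.22. In the other direction, Adam23, a disintegrin family gene, was at 82.9, 38.1 and 37.9 CPM, with a ratio of −1.12 (−1.62 to −0.65) against 0.15. The contactin-associated gene Cntnap2 was at 118, 56.4 and 65.8 CPM, with −1.07 (−1.48 to −0.68) against 0.50. Ano4, of the anoctamin family, was at 144, 67.3 and 134 CPM, with −1.10 (−1.47 to −0.74) against 1.00. Adam23 and Cntnap2 were also under control in the p300-ablated set, whereas Tnc, Sh3rf3 and Ano4 lay nearer to control there. The other nuclei of a library are a mixture whose makeup differs between libraries, and its part in these contrasts was not tested.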

How the results depend on the processing

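With 1 library per condition, the spread between cultures is not in any interval, and genes under 100 UMIs in 2 libraries together were left out of the counts past 2-fold unless stated. No paired analysis was possible because the labels carry no replicate numbers and each group has 1 library. No share difference and none of the 60 ratios tried, those of the 10 genes furthest from equal in each direction of each comparison, changed direction, but the balance of higher and lower genes did. The share difference from control, 2.0 points for CBP and 5.27 for p300, was 0.643 and 2.87 after thinning and 0.296 and 3.31 outside the astrocyte gate. Counts of genes past 2-fold depended on the setting. For CBP against control, the 25 higher genes became 38 with equal weight per nucleus, 47 after subtracting 10% stray RNA and 51 (of 7078) with at least 20 UMIs in each library, and the 48 lower genes became 73 after subtraction. For p300, the 21 higher genes became 42 (of 6321) at a threshold of 3 UMIs, 33 with equal weight and 53 after subtraction, and with at least 20 UMIs in each library 20 genes were higher and 62 lower (of 7657), not 21 and 14. For CBP against p300, that minimum gave 112 higher and 43 lower genes (of 7494), not 27 and 51. A lower minimum compares more genes of low count; for the other settings the cause was not tested. Against the glial progenitor gate in place of all other nuclei, 183 genes were above 2-fold and 80 below, not 432 and 194. Of these 60 ratios, 25 left their interval after subtraction of stray RNA, which left some at the floor of 3 UMIs in a library so that the ratio is not a measured one, 16 without nuclei of another gate, 14 without called doublets, 7 at each other threshold (59 ratios at 6 UMIs), 1 with equal weight and 0 under the rest.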

Other observations

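A few nuclei of the set held most of the transcripts of Tafa2, a secreted chemokine-like gene, chosen after its values were seen. At least 3 UMIs of it were found in 6, 4 and 15 nuclei (order control, CBP-ablated, p300-ablated), which held 69.7%, 74.4% and 74.0% of its UMIs. Their median depth was 5827.5, 7267 and 7660 UMIs, against 3615.5, 4238 and 4174 in nuclei of the set without Tafa2. Of them 2, 3 and 10 were called doublets, and 2, 1 and 13 also met another gate. Lhfpl3, an oligodendrocyte precursor gene, was at 6216, 5673 and 10130 CPM in them and at 485, 748 and 943 in nuclei of the set without Tafa2.

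Within the set, the median log2 ratio of the Hippo list was 0.18 for CBP over control, 0.16 for p300 over control and −0.05 for CBP over p300. The medians of all genes compared were 0.04, 0.01 and 0.04.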
